A study of Mus musculus with 4 samples.

Results

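The genes described here are 10 neuronal RNA-binding and splicing factors, taken by symbol from the 24421 genes of the expression table: *Elavl2*, *Elavl3*, *Elavl4*, *Nova1*, *Nova2*, *Rbfox1*, *Rbfox2*, *Rbfox3*, *Ptbp1* and *Ptbp2*. Each of the 10 was found in 1 row. The table covers 4 RNA-seq libraries, in which the starting material was neural tube tissue of E11.5 mouse embryos, dissociated and sorted for GFP fluorescence. The embryos carried a GFP knock-in on 1 allele (*Prdm13* GFP/+, labelled Het) or on both (*Prdm13* GFP/GFP, labelled Homo). The knock-in places GFP in *Prdm13* and disrupts the gene, so the comparison asks which transcripts differ in the *Prdm13* lineage when PRDM13, a transcriptional repressor of the dorsal neural tube, is missing. The control cells also carried 1 disrupted allele, and cells without the allele were not part of the comparison. RNA from 7 Het embryos formed 1 pool and RNA from 9 Homo embryos another, and 2 libraries of polyadenylated RNA were made from each pool. The 2 libraries of a genotype are therefore technical replicates, and every SD, interval and p-value below measures the spread between libraries of 1 pool and not the spread between embryos.

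Once a progenitor becomes a neuron, its mRNAs are spliced, stabilised and translated differently, and these 4 families are among the proteins that carry this out. The ELAV-like (Hu) proteins bind U-rich stretches of mRNAs and raise their stability or change their splicing and polyadenylation, and *Elavl3* and *Elavl4* are early markers of postmitotic neurons, whereas *Elavl2* is also made by some cells outside the nervous system. The NOVA and RBFOX proteins choose alternative exons of synaptic and cytoskeletal transcripts, and *Rbfox3* encodes the NeuN antigen. PTBP1 represses neuronal exons in progenitors and non-neural cells, among them an exon of *Ptbp2*, and its decline during neurogenesis, to which the microRNA miR-124 contributes, lets the neuronal relative PTBP2 accumulate.

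All 10 genes were expressed. Their levels are given as RPKM (reads divided by exon length and by library size), so that they may be compared between genes. In Het cells the order of mean RPKM was *Elavl3* (127), *Ptbp2* (126), *Ptbp1* (84.5), *Rbfox2* (62.9), *Elavl4* (58.0), *Nova2* (45.6), *Elavl2* (41.8), *Nova1* (19.7), *Rbfox3* (13.1) and *Rbfox1* (6.91). The libraries of neighbours in this order did not overlap, with the exception of *Elavl3* and *Ptbp2*. In Homo cells the order was the same but for *Elavl4* (67.8), which lay above *Rbfox2* (62.6), and no neighbours overlapped. *Elavl3* stood at percentile 96.5 of mean level among the genes tested and *Rbfox1* at percentile 29.1, with 363 to 12027 reads per gene and library behind the values. The log2 difference between the 2 libraries of a genotype ranged from 0.0033 (*Nova1* in Het) to 0.17 (*Rbfox1* in Het), where the counting of reads alone gives an SD of 0.046 and 0.089.

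**Figure D1:**
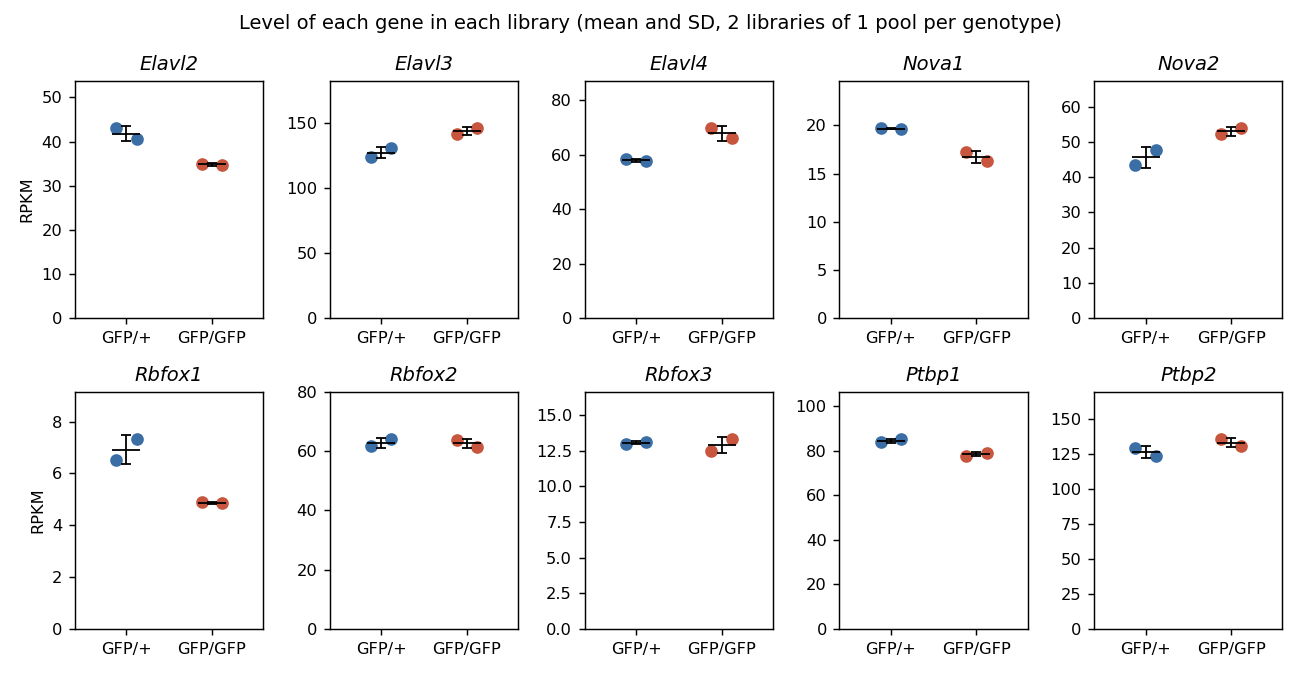
RPKM of each of the 10 genes (vertical axes, each starting at 0) in the Het (GFP/+, blue) and Homo (GFP/GFP, red) libraries. Points are single libraries, the wide bar is the mean and the whiskers are 1 SD of 2 libraries from 1 RNA pool. The points of the genotypes overlap for *Rbfox2* and *Rbfox3* and do not overlap for the other 8 genes.

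Between the genotypes 6 of the 10 genes differed at an adjusted p under 0.05 by limma, with Benjamini-Hochberg adjustment over the 12046 genes that reached a mean of 1 RPKM in either genotype. Of these, *Elavl3*, *Elavl4* and *Nova2* were higher in Homo cells and *Elavl2*, *Nova1* and *Rbfox1* were lower, so that both the ELAV and the NOVA families held members of either direction. Among all genes tested 19.7% passed the same test, 9.76% as higher and 9.95% as lower. Every difference was small. None of the 10 genes reached a fold of 1.5 (0.58 on the log2 scale) with an adjusted p under 0.05 by limma, a rule that 6.33% of all genes tested met. With the fold kept, 0 of the 10 passed at an unadjusted p under 0.05 (7.18% of all genes) and 0 by limma voom on reads recovered from the RPKM values (6.74% of all genes). Without the fold, 7 of the 10 passed at the unadjusted p, against 34.1% of all genes, and 6 by voom, against 27.0%, and these 6 were the same genes as above. The count of 6 was not stable, since 0 of the 10 passed without the filter on low values, 1 with eBayes without a trend, and 0 to 2 with 1 library left out. Among all genes, 33 passed as higher and 18 as lower without the filter, and 789 and 844 with eBayes without a trend. The fit used above passed 1176 and 1199. The libraries of the genotypes did not overlap for 8 of the 10 genes, against 62.1% of all genes tested. The median log2 fold change of the 10 genes was -0.01 and that of all genes 0.01, and the median size of the change, without its sign, was 0.20 and 0.12 (log2 scale).

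**Figure D2:**
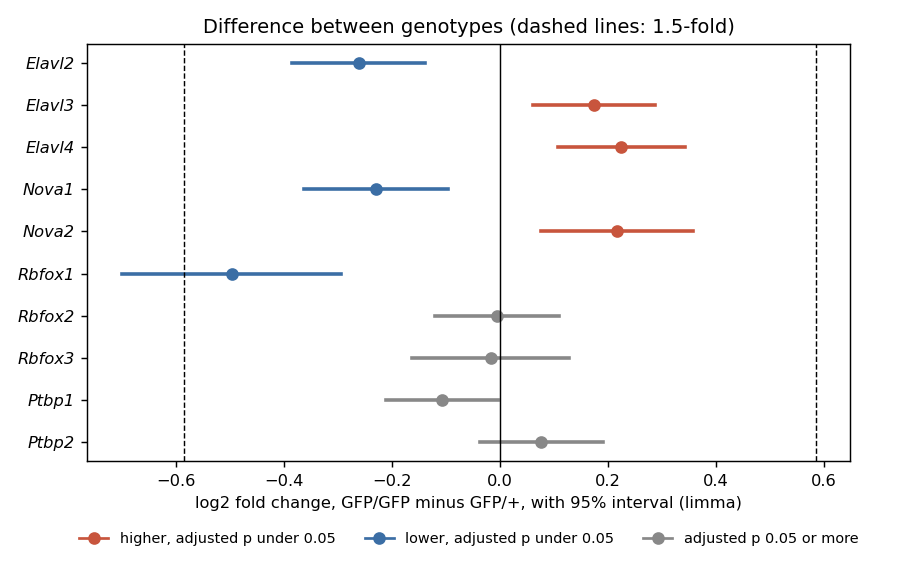
Log2 fold change of each gene (horizontal axis, Homo minus Het, on the log2(RPKM + 0.1) scale) with its 95% interval from limma. Red and blue points are genes higher or lower in Homo cells at an adjusted p under 0.05, grey points the other 4, and dashed lines mark a fold of 1.5. The interval of *Rbfox1* reaches past the lower dashed line and no other interval reaches either line.

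The 3 neuronal ELAV genes lie on chr9 (*Elavl3*, chr9:22015005-22052146) and chr4 (*Elavl4*, chr4:110203737-110351939, and *Elavl2*, chr4:91211533-91400108; RefSeq on GRCm38, the build of the mm10 table). *Elavl3*, the most abundant of the 10, measured 124.1 and 130.6 RPKM in the Het libraries and 141.5 and 145.8 in the Homo libraries. *Elavl4* measured 58.4 and 57.6 RPKM in Het and 69.7 and 66.0 in Homo. Both genes were higher in each Homo library than in either Het library. *Elavl3* rose by 0.17 on the log2 scale (SE 0.047, adjusted p = 0.0463 by limma), from 127 ± 4.56 to 144 ± 3.09 RPKM (SD, n = 2). *Elavl4* rose by 0.23 (SE 0.049, adjusted p = 0.0233 by limma), from 58.0 ± 0.516 to 67.8 ± 2.59 RPKM (SD, n = 2). *Elavl2* went the other way, with 43.0 and 40.6 RPKM in the Het libraries and 35.0 and 34.6 in the Homo libraries. It fell by 0.26 on the log2 scale (SE 0.052, adjusted p = 0.0167 by limma), from 41.8 ± 1.66 to 34.8 ± 0.264 RPKM (SD, n = 2) and again the genotypes did not overlap. Leaving out 1 library ended the calls of *Elavl3* and *Elavl4* whichever library it was (adjusted p from 0.0697 to 0.225 and from 0.0637 to 0.119 by limma). *Elavl2* kept its call without Het replicate 2 (adjusted p = 0.0362) and lost it without any other library (0.0738 to 0.0978).

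The 2 more abundant ELAV genes rose while the third fell, and the summed RPKM of the family went from 225.5 and 228.8 in the Het libraries to 246.2 and 246.5 in the Homo libraries, an increase of 8.44%. *Elavl2* made up 19.1 and 17.8% of the family's RPKM in Het and 14.2 and 14.1% in Homo. The share of *Elavl3* went from a mean of 56.1% to 58.3% and that of *Elavl4* from 25.5% to 27.5%. The difference in the share of *Elavl3*, 2.27 percentage points, was 1.26 without Het replicate 1 and 1.42 without Homo replicate 2, and that of *Elavl4*, 2.00 points, was 1.24 without Homo replicate 1. For each *Elavl2* transcript, relative to length, there were 2.89 and 3.21 of *Elavl3* in the Het libraries and 4.04 and 4.21 in the Homo libraries, a difference of 0.44 on the log2 scale. The ratio of *Elavl4* to *Elavl2* differed by 0.49 on the same scale, also without overlap. The ratio of *Elavl4* to *Elavl3* differed by 0.051, with overlapping libraries. Ratios were compared for 7 pairs within the 4 families with the two-sided exact permutation test, which cannot go below 0.33 with 2 libraries against 2. The exact permutation p was 0.33 for 6 pairs (0.389 adjusted over the 7) and 0.667 for *Elavl4* over *Elavl3* (0.667 adjusted).

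**Figure D3:**
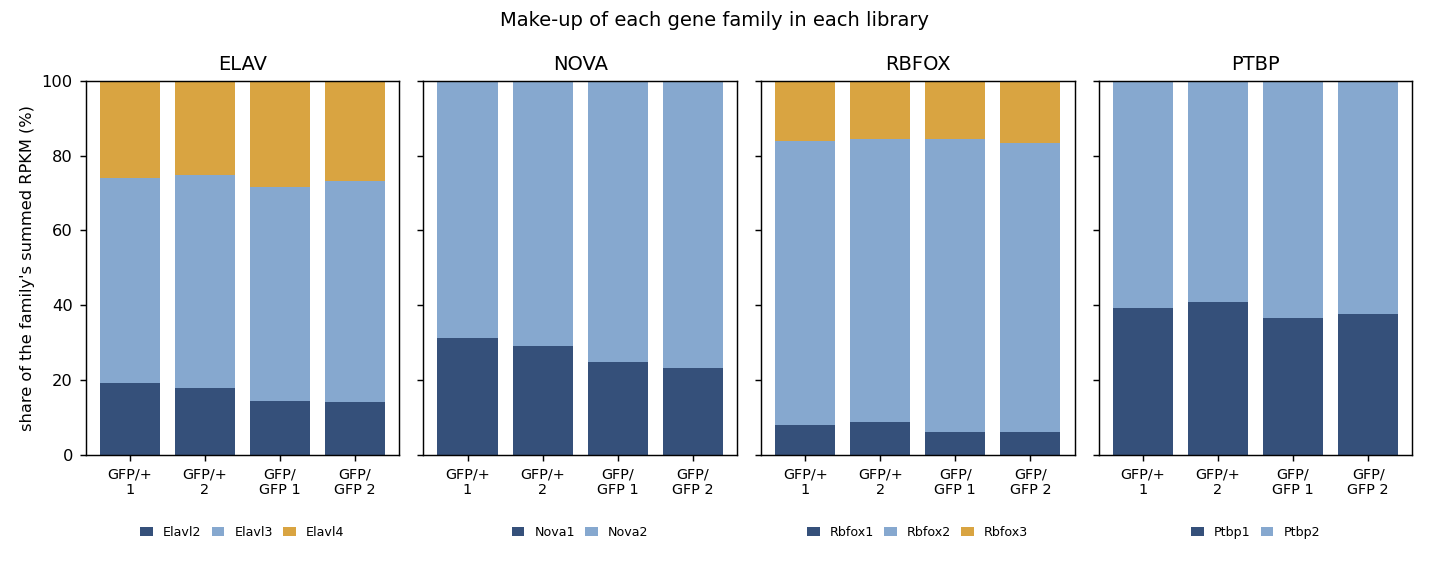
Share of each member in the summed RPKM of its family (vertical axis, percent, from 0) in each of the 4 libraries, 1 panel per family. The lowest block is smaller in both Homo libraries than in either Het library in every panel, being *Elavl2*, *Nova1*, *Rbfox1* and *Ptbp1*.

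The NOVA genes also differed in opposite directions. *Nova1* (chr12:46697895-46819480) measured 19.7 and 19.6 RPKM in the Het libraries and 17.2 and 16.3 in the Homo libraries, and fell by 0.23 on the log2 scale (SE 0.056, adjusted p = 0.0334 by limma). *Nova2* (chr7:18925888-18965319), the more abundant of the pair, measured 43.5 and 47.6 RPKM in Het and 52.1 and 53.8 in Homo. Its libraries did not overlap between genotypes either, and it rose by 0.22 (SE 0.059, adjusted p = 0.0465 by limma). The sum of both genes went from 65.2 ± 2.85 to 69.7 ± 0.568 RPKM (SD, n = 2), and the share of *Nova1* in it from 30.2 ± 1.37% to 24.1 ± 1.11%. *Nova2* over *Nova1* was 2.21 and 2.43 in the Het libraries and 3.03 and 3.30 in the Homo libraries, a log2 difference of 0.45. The 2 Het libraries of *Nova2* lay 0.13 apart on the log2 scale, where counting alone gives an SD of 0.028, and its log2 fold change ranged from 0.15 without Het replicate 1 to 0.28 without Het replicate 2. *Nova1* lost its call without any 1 library (adjusted p from 0.0758 to 0.177 by limma). *Nova2* kept its call only without Het replicate 2 (0.0423) and lost it without each of the other 3 (0.121 to 0.213).

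*Rbfox1* (chr16:5884793-7412480), an RBFOX gene of neurons and muscle with a very long transcription unit, had the largest change of the 10 genes and the lowest level. It measured 6.51 and 7.32 RPKM in the Het libraries, from 413 and 735 reads, and 4.88 and 4.84 in the Homo libraries, from 435 and 363 reads. The Homo values were close together and below both Het values, and *Rbfox1* fell by 0.50 on the log2 scale (SE 0.085, 95% interval -0.70 to -0.29, adjusted p = 0.010 by limma). Without Het replicate 1 the call held (adjusted p = 0.0343), and without each of the other libraries it did not (0.0569 to 0.0676). The other RBFOX genes did not pass the test. *Rbfox2* (chr15:77078990-77308434), the broadly expressed member, measured 61.7 and 64.0 RPKM in Het and 63.7 and 61.5 in Homo. *Rbfox3* (chr11:118489760-118911597) measured 13.0 and 13.1 in Het and 12.5 and 13.3 in Homo. Their libraries overlapped, and the 95% intervals of the log2 difference ran from -0.121 to 0.110 for *Rbfox2* and from -0.162 to 0.128 for *Rbfox3* (adjusted p = 0.950 and 0.870 by limma), so that a fold of 1.5 in either direction lay outside both. *Rbfox2* supplied 75.9 ± 0.126% of the family's RPKM in Het and 77.9 ± 0.954% in Homo (SD, n = 2), and *Rbfox1* 8.34 ± 0.454% and 6.05 ± 0.0431%. The difference in the share of *Rbfox2*, 2.0 percentage points, was 1.33 without Homo replicate 1. The sum of the 3 genes was 81.2 and 84.5 RPKM in the Het libraries and 81.1 and 79.7 in the Homo libraries, so that the lower Het and the higher Homo value all but touched.

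The PTBP pair did not pass the test in either direction. *Ptbp1* (chr10:79854432-79864435) measured 83.8 and 85.2 RPKM in the Het libraries and 77.8 and 79.0 in the Homo libraries. *Ptbp2* (chr3:119718741-119784647) measured 129.5 and 123.3 RPKM in Het and 135.7 and 130.8 in Homo. Neither gene's libraries overlapped between genotypes, although the gap for *Ptbp2* was small beside the distance between libraries of 1 genotype. The log2 difference was -0.11 for *Ptbp1* (SE 0.044, 95% interval -0.212 to -0.0033, adjusted p = 0.137 by limma) and 0.076 for *Ptbp2* (SE 0.048, 95% interval -0.038 to 0.190, adjusted p = 0.311 by limma). Quantile normalization brought *Ptbp1* past the threshold, at -0.17 with an adjusted p of 0.0400 by limma. The sum of the pair was 210.9 ± 3.35 RPKM in Het and 211.6 ± 2.62 in Homo (SD, n = 2), with overlapping libraries. *Ptbp2* over *Ptbp1* was 1.55 and 1.45 in the Het libraries and 1.74 and 1.66 in the Homo libraries, a log2 difference of 0.18 and the smallest of the 6 ratios whose libraries did not overlap. Per-gene values do not show which *Ptbp2* transcripts held the exon that PTBP1 represses.

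For 4 of the 10 genes, exons overlap those of another annotated gene, by 256 bases on the same strand for *Elavl3* (Gm49318), 310 on the same strand for *Nova1* (Gm33869) and 2652 on the opposite strand for *Nova2* (Gm26821). *Ptbp1* has 3 overlaps on the opposite strand, of 295 bases with E130317F20Rik, 437 with Gm17134 and 251 with *Plppr3*. For *Elavl3* and *Nova1*, strand would not separate the reads of the partner over the shared bases. Whether the counting used strand is not stated in the sources used here. For *Nova2* and *Ptbp1*, it is therefore not known whether reads of the partners were told apart from those of the gene over the shared bases.

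**Figure D4:**
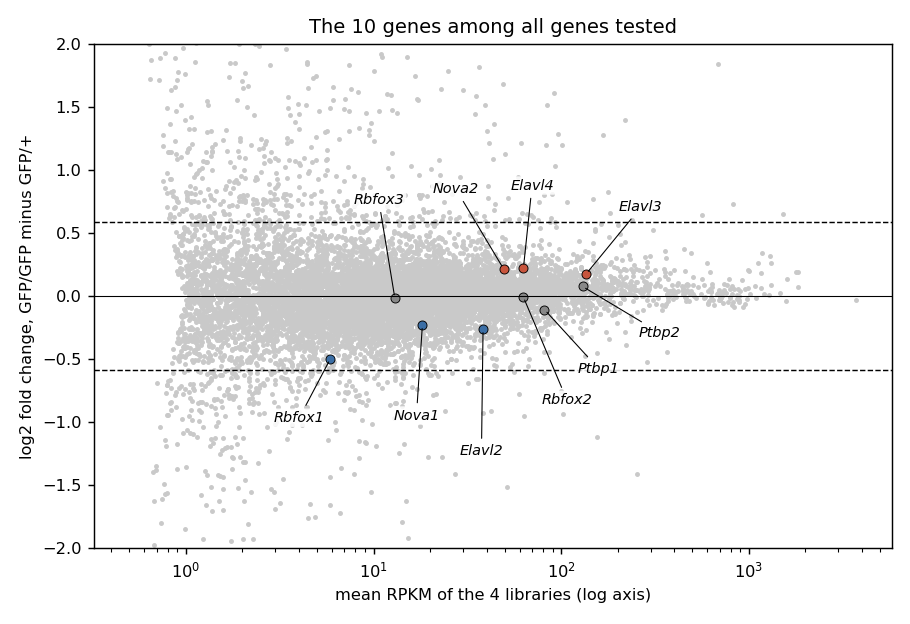
Log2 fold change (vertical axis, Homo minus Het) against the mean RPKM of the 4 libraries (horizontal log axis) for the genes tested (grey) and the 10 genes (outlined; red higher, blue lower, grey past no threshold). Dashed lines mark a fold of 1.5, and 139 genes lie outside the vertical range of -2 to 2. All 10 outlined points lie between the dashed lines.

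Other genes that act in the same processes were followed in 5 lists with 98 genes, of which 94 were tested. Of these 14 passed an adjusted p of 0.05 by limma, 11 as higher and 3 as lower in Homo cells. That is 14.9% beside the 19.7% of all genes tested. With the fold of 1.5 as well, 3 of the 94 passed, all higher, a rule that 6.33% of all genes tested met. The count of 14 was 1 without the filter on low values, 8 with eBayes without a trend, 5 to 9 with 1 library left out, and 25 by voom or with the replicate number as a block. The genes named below other than these 3 and the highest and lowest of each list were picked with the values in view.

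The list nearest to the 10 genes held 17 further neural RNA-binding and splicing regulators and also moved in both directions. It had 3 higher, 3 lower and 11 that did not pass (median log2 fold change -0.04, beside 0.01 for all genes). Among all genes tested 9.76% passed as higher and 9.95% as lower. The 3 higher were 2 CELF genes, *Celf5* and *Celf3*, and *Srrm3*, which encodes an activator of neuronal microexons. *Celf5* measured 13.2 and 13.4 RPKM in the Het libraries and 17.2 and 17.2 in the Homo libraries (log2 difference 0.37, adjusted p = 0.00601 by limma). *Celf3* went from 150 ± 9.65 to 177 ± 7.69 RPKM and *Srrm3* from 25.8 ± 1.44 to 31.0 ± 1.33 (SD, n = 2). Lower were another CELF gene, *Celf4*, with *Msi2*, a Musashi translational regulator of progenitors, and *Khdrbs3*, a splicing regulator related to SAM68. *Celf4* measured 22.3 and 22.7 RPKM in Het and 16.7 and 17.6 in Homo (log2 difference -0.39, adjusted p = 0.00513 by limma). *Msi2* went from 40.9 ± 0.210 to 34.6 ± 0.386 RPKM and *Khdrbs3* from 62.4 ± 1.15 to 54.1 ± 0.341 (SD, n = 2). *Celf1*, *Celf2* and *Celf6* did not pass (log2 differences of -0.04, -0.11 and 0.21). The lowest value of the list was that of *Mbnl3*, a muscleblind gene near 1 RPKM, at -0.48, which did not pass (adjusted p = 0.206 by limma).

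Of 43 SR proteins and hnRNPs, the splicing factors of most cell types, 1 passed, beside 19.7% of all genes tested. This was the poly(C)-binding protein gene *Pcbp3* (0.27 on the log2 scale, adjusted p = 0.0158 by limma), and the median of the list was 0.00. *Hnrnpul1* had the lowest value, -0.19 (adjusted p = 0.0508 by limma). This list also holds relatives of the ELAV and PTBP genes. *Elavl1* (HuR) measured 33.1 and 32.1 RPKM in the Het libraries and 35.7 and 35.0 in the Homo libraries, a log2 difference of 0.12 that did not pass (adjusted p = 0.153 by limma). *Ptbp3* measured 8.62 and 8.41 in Het and 8.71 and 7.92 in Homo, with overlapping libraries. Of 17 factors of mRNA transport, stability and translation tested, 0 passed the adjusted p of 0.05 by limma, 6 passed at an unadjusted p under 0.05 (2 higher and 4 lower) and 4 by voom, rules that 34.1% and 27.0% of all genes met. Their values ran from -0.32 for *Lin28b* to 0.21 for *Lin28a*, both RNA-binding repressors of let-7 microRNAs (adjusted p = 0.0610 and 0.140 by limma), with a median of -0.08.

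Around *Ptbp1*, 12 genes were listed, those of the REST repressor complex and of miR-124, and *Dlg4*. Of these 11 had a row, 10 were tested and 3 passed, all higher (median 0.08), beside 19.7% of all genes tested. The gene without a row was Mir124-2hg, another host transcript of miR-124. Among the 10, the precursor row Mir124a-3 rested on 1 read in each library. *Ctdsp2*, a phosphatase that acts with REST, measured 25.0 and 26.2 RPKM in the Het libraries and 39.7 and 40.4 in the Homo libraries and passed with a log2 difference of 0.64 (adjusted p = 0.000513 by limma). *Rcor2*, a corepressor of the CoREST family, rose from 175 ± 3.21 to 216 ± 5.32 RPKM. Mir124a-1hg, a host transcript of miR-124, rose from 39.4 ± 0.598 to 46.7 ± 0.471 RPKM (SD, n = 2), by 0.24 on the log2 scale. The lowest value was that of the precursor row Mir124a-2, at -0.86, which rested on 14 and 24 reads in Het and 15 and 7 in Homo and did not pass (adjusted p = 0.0507 by limma). The row Mir124a-1 was listed at 0 in all 4 libraries, and *Rest* itself did not pass (7.18 ± 0.237 RPKM in Het and 6.84 ± 0.0297 in Homo; SD, n = 2). Rows of polyadenylated RNA do not measure the mature microRNA.

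Of 8 transcripts bound by neuronal ELAV proteins, 7 were tested and 4 passed, all higher in Homo cells (median 0.21, beside 0.01 for all genes). Among all genes tested 19.7% passed, 9.76% as higher. With the fold of 1.5 as well, 2 of the 7 passed, beside 6.33% of all genes tested. This list was chosen with earlier results of these data known, so its counts are not independent of them. The highest was *Nrn1*, which encodes the secreted protein neuritin, with 5.97 and 5.35 RPKM in the Het libraries and 14.9 and 16.7 in the Homo libraries (log2 difference 1.47, adjusted p = 0.000131 by limma). *Gap43*, the growth-cone protein whose mRNA ELAVL4 binds, measured 61.4 and 60.6 RPKM in Het and 138 and 142 in Homo (log2 difference 1.20). *Mapt* (tau) rose from 23.3 ± 0.508 to 31.1 ± 0.891 RPKM and *Marcks* from 326 ± 2.43 to 379 ± 24.3 (SD, n = 2). *Satb1* was lowest of the list, at 0.03, with overlapping libraries. *Gap43* is also in the list of pan-neuronal markers below, and RPKM values do not separate stability from transcription.

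**Figure D5:**
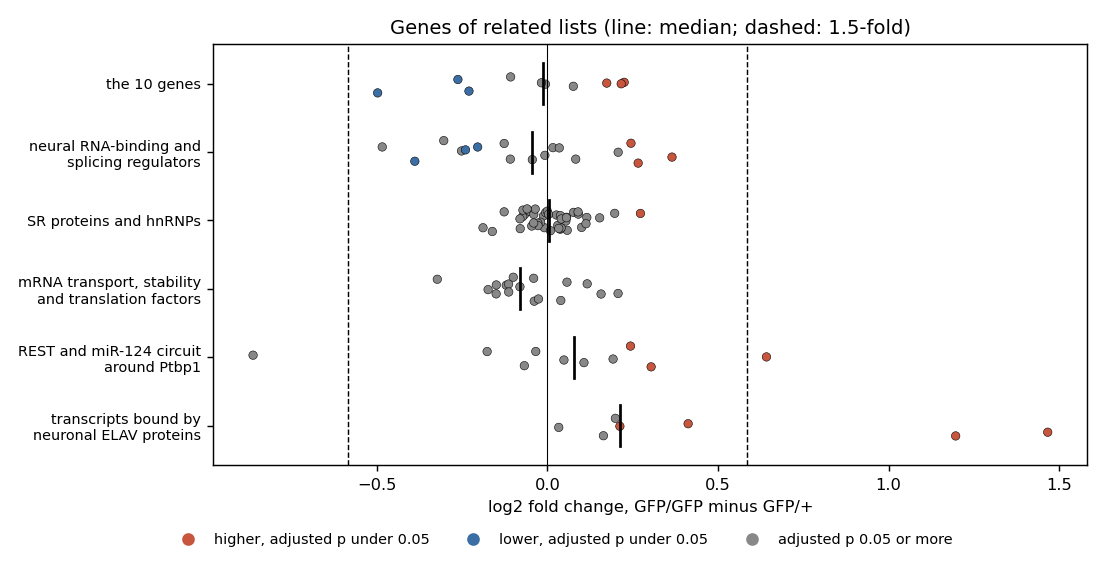
Log2 fold change (horizontal axis, Homo minus Het) of the genes tested in each list, 1 point per gene. Black lines are list medians, dashed lines a fold of 1.5, and colours as in the plot of the 10 genes' fold changes. Points on both sides of 0 pass the test among the 10 genes and among the neural RNA-binding regulators, and 3 points, *Ctdsp2*, *Gap43* and *Nrn1*, lie beyond the right dashed line with an adjusted p under 0.05.

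Several features of the sorted cells moved with these differences. *Prdm13* RNA itself was 120.4 ± 9.10 RPKM in Het and 317 ± 10.6 in Homo (SD, n = 2; log2 difference 1.40), and a value per gene does not tell a disrupted transcript from an intact one. The summed RPKM of 13 pan-neuronal markers was 3619 to 3686 in Het and 4308 to 4489 in Homo. By limma 7 of these markers were higher and 1 lower at an adjusted p under 0.05, which 19.7% of all genes tested met. *Stmn1* (means of 1519 in Het and 1665 in Homo) and *Tubb3* (1040 and 1318) were the largest parts of this sum. The log2 differences of the 13 markers ran from -0.63 (*Snap25*) to 1.51 (*Nefl*). The sum of 16 progenitor markers was 3093 to 3097 and 3022 to 3110, with 5 higher and 5 lower. *Vim* (means of 932 in Het and 967 in Homo) and *Fabp7* (666 and 633) were its largest parts. Lower were *Sox1*, *Sox2*, *Hes1*, *Mki67* and *Top2a*, and higher were *Sox3*, *Pax6*, *Hes5*, *Notch1* and *Prom1*. The log2 differences of the 16 markers ran from -0.68 (*Sox1*) to 0.54 (*Sox3*). All 8 markers of dorsal inhibitory neurons were lower (523 to 561 against 99.5 to 106) and all 7 of dorsal excitatory neurons higher (30.4 to 33.3 against 195 to 201). For sensory ganglion and neural crest, 6 of 10 markers were tested, 4 were higher and 1 lower, and the sum went from 39.2 to 45.5 in Het to 77.9 to 82.6 in Homo. Their part in the differences of the 10 genes was not tested. The endothelial sum was at most 2.84 RPKM in every library, and the mesenchymal sum was 5.22 to 5.55 in Het and 4.18 to 4.26 in Homo. The sum of 9 erythroid markers was 47.2 to 47.9 in Het and 48.7 to 49.7 in Homo. Most of it came from the globin genes *Hbb-y* (means of 24.9 in Het and 27.5 in Homo), *Hba-x* (16.4 and 15.3) and *Hbb-bh1* (5.79 and 5.87). Erythroid RNA was therefore present, although the globin rows *Hba-a1*, *Hba-a2* and *Hbb-bt* were at 0. In RNA from many cells, fewer cells that express a gene and less RNA per cell cannot be told apart. The libraries held 12414130 and 19738849 recovered reads in Het and 17598710 and 14887298 in Homo.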

How the data were processed

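RNA-seq libraries of GFP+ cells from E11.5 neural tubes were grouped by the submitters' labels into Het and Homo, with 2 technical replicates each. Per the labels and the study's methods, the authors mapped reads to mm10 using TopHat2 2.1.0, assigned them to RefSeq genes using featureCounts, applied TMM normalization (edgeR 3.6.8) and deposited RPKM for 24421 genes. TMM assumes that most genes do not change.

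The deposited RPKM were tested as log2(RPKM + 0.1), a scale that understates changes of low genes, by the two-sided moderated test of limma 3.58.1 (R 4.3.3; lmFit, then eBayes with an intensity trend) over the 12046 genes with a mean of at least 1 RPKM in either genotype. The fit was first tested on simulated data. Whole reads were recovered from the steps of RPKM for 99.99% of the genes above 0 (within 0.0001 reads plus 6e-07 per read). limma voom on these reads, used as an alternative, called 1520 genes higher and 1732 lower at an adjusted p under 0.05. Python 3.11.15, pandas 2.3.3, scipy 1.17.1 and matplotlib 3.10.9 were used for tables and plots. The recovered reads bear on counting error only.

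The rule named all 10 members, *Prdm13*, and in each list the genes called and the highest and lowest. The members and lists were chosen with earlier results of these data known. Alternatives were pseudocounts of 1 and 0.01, other filters, median ratio and quantile scaling, eBayes without a trend, a replicate block, voom, and leaving out each library. Positions come from RefSeq on GRCm38 and exon overlaps from GENCODE vM21. The result of 1 sequence search is not reported here.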

Additional observations from a re-analysis of the deposited data

How the results depend on the processing

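The directions of the 6 called genes held under all 13 alternatives. *Elavl2* passed the adjusted p of 0.05 under 8 of them, *Elavl3* under 6, *Elavl4*, *Nova1* and *Nova2* under 7 and *Rbfox1* under 9. Pseudocounts of 1 and 0.01, the stricter filter, median ratio scaling and voom kept all 6 calls.

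Without a filter on low values 0 of the 10 genes passed, with log2 fold changes of -0.26 for *Elavl2* (adjusted p = 0.126), 0.17 for *Elavl3* (0.211), 0.23 for *Elavl4* (0.146), -0.23 for *Nova1* (0.137), 0.22 for *Nova2* (0.274) and -0.50 for *Rbfox1* (0.137), and limma called 33 genes higher and 18 lower in all, 30 and 14 of them with the fold of 1.5. Of the pathway genes 1 passed, also with the fold. With eBayes without a trend only *Rbfox1* passed (1 of 10, with 8 pathway genes). Among all genes tested, 789 passed as higher and 844 as lower in that fit. The others were *Elavl2* at -0.26 (adjusted p = 0.0591 by limma), *Elavl3* at 0.17 (0.133), *Elavl4* at 0.23 (0.0791), *Nova1* at -0.23 (0.0748) and *Nova2* at 0.22 (0.122). Quantile normalization ended the calls of *Elavl3* (0.12, adjusted p = 0.124) and *Nova2* (0.18, 0.0817) and added *Ptbp1* (-0.17, 0.0400). voom passed 25 pathway genes. The cause of these changes was not tested.

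Same-numbered libraries deviated together with a correlation of 0.0475 over 12046 genes and 0.259 over the 6896 with a mean of at least 10 RPKM, and with 2 pairs the numbers are not shown to pair them. With the replicate block 6 of the 10 genes passed (1685 genes higher and 1515 lower, 459 and 342 with the fold), with 25 pathway genes, and no call of the 10 genes changed.

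Leaving out 1 library, which leaves a lone library assumed to vary like the other group, gave -0.30 to -0.22 for *Elavl2*, 0.14 to 0.21 for *Elavl3*, 0.19 to 0.26 for *Elavl4*, -0.27 to -0.19 for *Nova1*, 0.15 to 0.28 for *Nova2*, -0.58 to -0.41 for *Rbfox1*, -0.033 to 0.022 for *Rbfox2*, -0.062 to 0.027 for *Rbfox3*, -0.12 to -0.096 for *Ptbp1* and 0.041 to 0.11 for *Ptbp2*. *Rbfox2* changed sign without Homo replicate 2 (0.020) and Het replicate 2 (0.022), and *Rbfox3* without Homo replicate 1 (0.027). From 0 to 2 of the 10 genes and 5 to 9 pathway genes passed, 3 to 4 with the fold, with 428 to 828 genes higher and 438 to 568 lower, and 285 to 490 and 240 to 298 with the fold.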
